A study of Mus musculus with 8 samples.

Results

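Acetylcholine acts through nicotinic receptors, which are ion channels built of 5 subunits, and through muscarinic receptors, which couple to G proteins. Genes of both receptor families and of acetylcholine handling were described here in whole uterus of 8 pseudopregnant C57BL/6J mice. The 32 genes comprised 16 nicotinic subunits, 5 muscarinic receptors, 3 genes of acetylcholine synthesis and transport, 2 cholinesterases, 5 proteins of the Ly6 family and the chaperone Ric3. They were listed by gene name, with earlier results of these data known, and no measured value enters the list. All 32 were measured, out of 19505 genes on the array. A gene on more than 1 probe set, the array's unit of measurement, was read from the probe set with the highest mean. This concerned Ache, on 2 probe sets.

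The exposed group comprised 4 mice that inhaled e-cigarette aerosol of propylene glycol and vegetable glycerin in a 55:45 ratio with 24 mg/mL nicotine and no flavouring. Whole-body exposure lasted 3 hours a day at 2 puffs per minute, on 5 days a week over 4 weeks before mating and then daily. The sham group comprised 4 mice in room air. All 8 were wild-type females mated to vasectomised males, and uteri were taken on the morning of day 4.5, counting the plug as day 0.5, so that no embryo was present. Because sham mice breathed room air and not aerosol without nicotine, nicotine and the carrier cannot be told apart. Each mouse gave 1 array. Values below are log2 expression, and those with ± after a group are the mean and SD of its 4 mice, while ± after a difference is its SE. The question put to these genes is whether inhaled nicotine aerosol goes with altered transcripts of its own receptor system in the uterus around implantation.

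Nicotine is an agonist of nicotinic receptors, and acetylcholine is the natural ligand of both families. Muscle-type nicotinic receptors sit at the neuromuscular junction of skeletal muscle, and neuronal types act in autonomic ganglia and brain, while the alpha7 and alpha9 subunits can form channels alone and are also known outside neurons. In smooth muscle, that of the uterus included, muscarinic M3 receptors act through Gq to contract the cell, and M2 receptors act through Gi. The choline acetyltransferase Chat makes acetylcholine and cholinesterases break it down.

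No member of these families passed the test for a difference between exposed and sham uteri. Limma's test, adjusted by Benjamini-Hochberg over all 22206 probe sets, called 0 of 32 members, against 0% of the array, with adjusted p from 0.838 to 0.991. At an unadjusted p under 0.05 the count was also 0 of 32, against 5.42% of all probe sets (1203 of 22206). Without exposed mouse 1 it was 4 (Chrnb1, Chrnd, Chrna4 and Bche), or 12.5%, when 11.5% of all probe sets reached it, and without exposed mouse 4 it was 2 (Chrna5 and Chrm1), or 6.25%, when 3.87% of all probe sets did. In either case 0 members passed the adjusted test. Over all mice the smallest unadjusted p was 0.0615, for Chrnd. For 0 of 32 members were the exposed and sham ranges separate, which 2.73% of all probe sets had. The mean was higher in exposed mice for 18 members and lower for 14, with a median difference of 0.036 on the log2 scale, against 0.0014 over all probe sets. Differences ran from -0.47 for Bche to 0.32 for Chrnb1, and none exceeded 1.5-fold.

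The size of change that these arrays could have missed is given by the 95% intervals of the difference. For 30 of 32 members the interval lay within 1.5-fold in either direction, as it did for 86.7% of all genes. The exceptions were Chrnb1, with an interval of -0.12 to 0.76, and Bche, with -1.17 to 0.23. These intervals bound the signal of a probe set. Where that signal lies in the range of transcripts not expected in the tissue, they do not bound the amount of transcript.

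**Figure D1:**
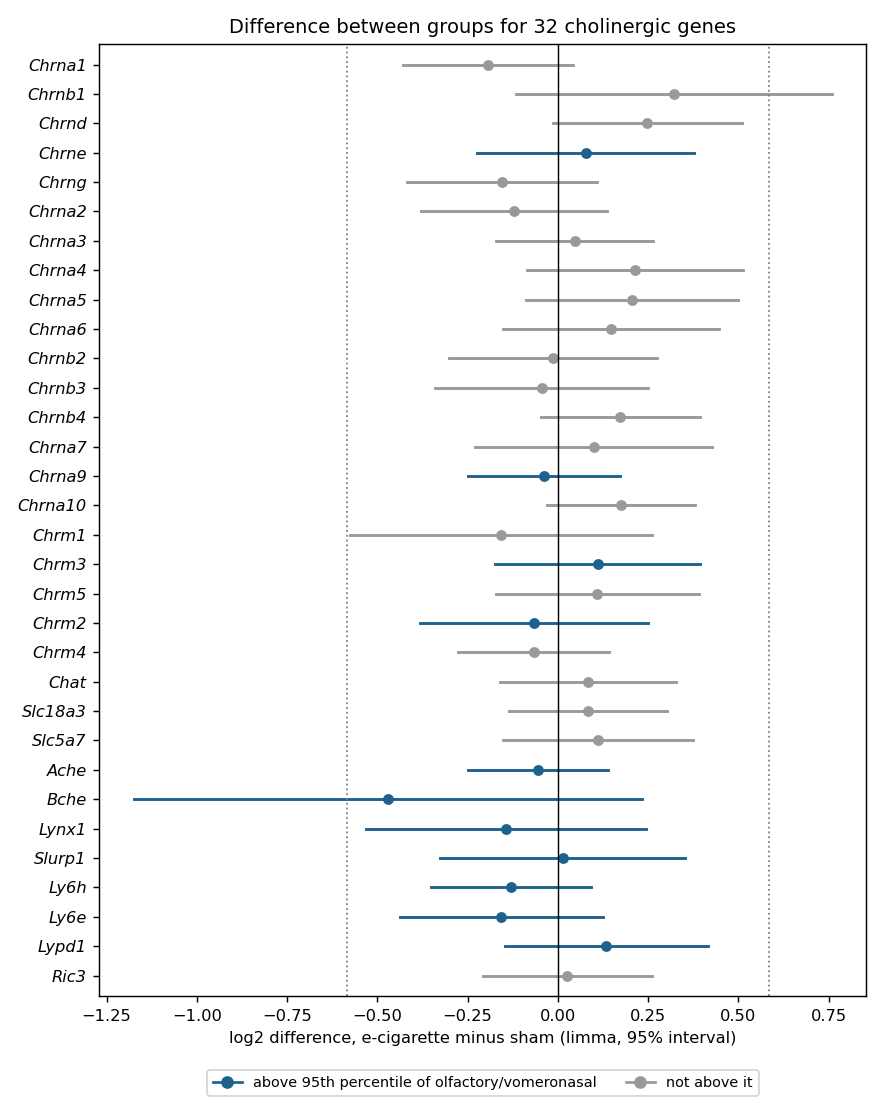
Difference between groups, exposed minus sham, for 32 cholinergic genes ordered by role, with 95% intervals from limma (4 mice per group); dotted lines mark 1.5-fold. Every interval holds 0, and those of Chrnb1 and Bche pass a dotted line; grey marks genes whose mean level is not above the 95th percentile of olfactory and vomeronasal receptor probe sets.

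Levels were low for most of the family. The array median was 7.08, and 5 of 32 members had a mean above it (Ly6e, Bche, Lynx1, Chrm2 and Ly6h), against 51.5% of all genes. Olfactory and vomeronasal receptor genes, most of which are expressed in the nose, gave a range for transcripts little expected in uterus. Their 1414 probe sets had a median of 4.35 and a 95th percentile of 6.15. Of these 1414, 34 reached an unadjusted p under 0.05 in limma, a smaller share than the 5.42% of all probe sets. A low count is thus less unusual among dim genes than the share of all probe sets implies. Relative to the array median, the mean was 0.24 higher for Lynx1, 0.17 higher for Chrm2 and 0.045 higher for Ly6h, and -0.059 for Chrm3. Above that 95th percentile lay 11 members, or 34.4%, against 67.1% of all genes. By role, these were 2 of 16 nicotinic subunits, 2 of 5 muscarinic receptors, both cholinesterases, all 5 Ly6 proteins and 0 of 3 synthesis and transport genes. Ache was above that percentile on the brighter of its probe sets only. Probe sets differ in brightness at equal transcript, so that levels of different genes are not ranked here, and a member under this percentile may still be transcribed.

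**Figure D2:**
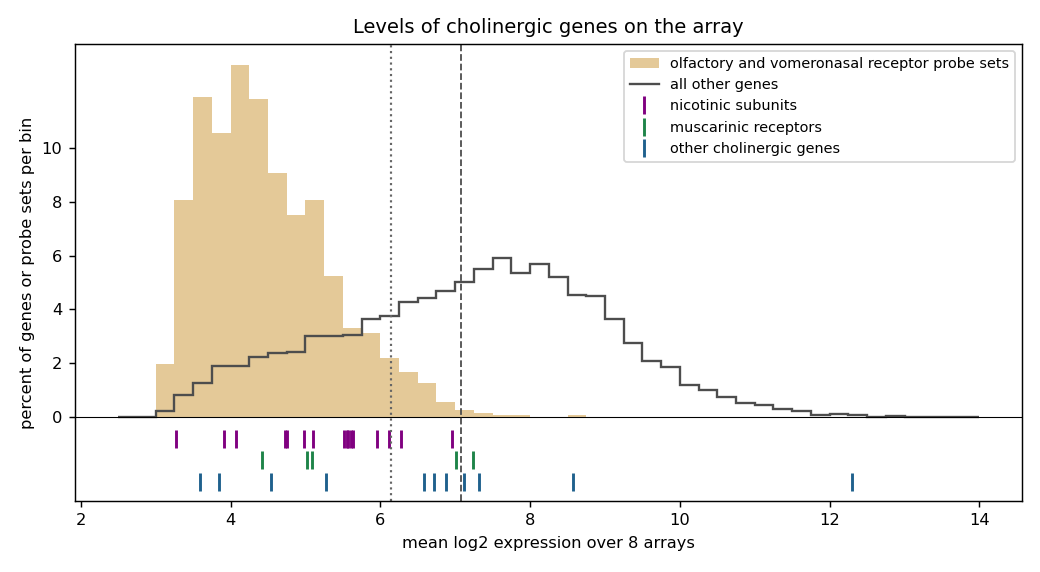
Mean log2 expression over 8 arrays: the shaded histogram shows 1414 olfactory and vomeronasal receptor probe sets, the line all other genes, and ticks the 32 cholinergic genes (dotted line, 95th percentile of the shaded set, 6.15; dashed line, array median, 7.08). Of the nicotinic subunits, Chrna9 and Chrne lie right of the dotted line.

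Markers of the uterus were read in all samples. Hoxa11, a homeobox gene of the uterine stroma, was 8.76 to 9.36 in exposed mice and 9.15 to 9.28 in sham mice, and all 9 smooth muscle markers and all 9 measured epithelial markers lay above the olfactory and vomeronasal 95th percentile, as did 8 of 15 autonomic nerve, 5 of 10 skeletal muscle and 0 of 4 Schwann cell markers. Of 5 measured ovary markers, 2 lay above that percentile. Ovgp1, the 1 measured oviduct marker, was above it as well, at 8.43 to 9.68 in exposed and 7.97 to 9.23 in sham mice. Whether adjacent tissue entered the samples was not tested. Exposed mice 2 and 4 stood apart from the other 6, with mean correlations of 0.982 and 0.977 with the other arrays, against 0.9858 to 0.9875 for the rest. In whole tissue, fewer cells of a type and less RNA per cell cannot be told apart.

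Among muscle-type nicotinic subunits, Chrna1, the alpha subunit that binds acetylcholine in skeletal muscle, read 4.53, 4.60, 4.75 and 4.65 in exposed mice, against 4.81, 4.61, 5.03 and 4.86 in sham mice. The groups overlapped, with exposed mice 1 and 2 below every sham mouse, and the difference was -0.19 ± 0.11 with limma's adjusted p at 0.838. Chrnd, the delta subunit, read 3.89, 4.25, 4.38 and 4.24 in exposed mice, against 4.02, 3.96, 4.01 and 3.78 in sham mice. Exposed mice 2, 3 and 4 lay above every sham mouse and exposed mouse 1 among them, at levels close to the median of olfactory and vomeronasal receptors. Its difference was 0.25 ± 0.12 (unadjusted p = 0.0615, limma's adjusted p = 0.838).

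Chrnb1, the beta subunit of the muscle receptor, read 5.86, 6.45, 6.13 and 6.67 in exposed mice, against 5.73, 5.66, 6.09 and 6.33 in sham mice. Exposed mice 2 and 4 were higher than any sham mouse, and exposed mice 1 and 3 lay within the sham range. The difference of 0.32 ± 0.20 did not pass (limma's adjusted p = 0.838), and it was 0.041 when exposed mice 2 and 4 were left out. Chrne, the epsilon subunit of the adult receptor, read 6.04, 6.59, 6.15 and 6.47 in exposed mice, against 6.18, 6.35, 6.07 and 6.35 in sham mice. Again exposed mice 2 and 4 were the highest, the others overlapping, with a difference of 0.076 ± 0.13 overall and -0.14 without those mice. Chrng, the gamma subunit that epsilon replaces after birth, was 5.03 ± 0.16 in exposed and 5.18 ± 0.18 in sham mice, with overlapping ranges. Of the 5 muscle-type genes only Chrne had a mean above the olfactory and vomeronasal 95th percentile. Chrnb1, at 6.12 over all mice, was just under it.

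All 5 neuronal alpha subunits that pair with beta subunits had means under the olfactory and vomeronasal 95th percentile, as did all 3 beta subunits. Chrna4, which with Chrnb2 forms the main high-affinity nicotine receptor of brain, read 5.76, 6.19, 5.98 and 6.31 in exposed mice, against 5.66, 5.88, 6.05 and 5.79 in sham mice. Exposed mice 2 and 4 were above the sham range and exposed mice 1 and 3 within it (difference 0.21 ± 0.13, limma's adjusted p = 0.840). The difference was 0.023 without exposed mice 2 and 4. Chrnb2 itself was 5.62 ± 0.11 in exposed and 5.64 ± 0.25 in sham mice, a difference of -0.014 ± 0.13.

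Chrna3, Chrnb4 and Chrna5 encode the alpha3 and beta4 subunits of the autonomic ganglion receptor and the accessory alpha5 subunit, and lie next to each other in the RefSeq gene table. Chrna5 read 3.23, 3.52, 3.61 and 3.11 in exposed mice, against 3.39, 3.06, 3.15 and 3.05 in sham mice, below the median of olfactory and vomeronasal receptors in all 8 mice and with exposed mice 2 and 3 above the sham mice. Chrnb4 read 5.75, 5.64, 5.60 and 5.81 in exposed mice, against 5.54, 5.42, 5.72 and 5.43 in sham mice, with exposed mice 1 and 4 above the sham mice. Chrna3 was 4.78 ± 0.13 in exposed and 4.74 ± 0.11 in sham mice and its groups overlapped. The 3 neighbours differed by 0.21 ± 0.13, 0.17 ± 0.099 and 0.046 ± 0.098 in the order Chrna5, Chrnb4, Chrna3, and the exposed mice that were high differed from gene to gene. Chrna5 and Chrna3 overlap at their ends in that table, and whether their probes share sequence was not tested.

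Chrna6 and Chrnb3, neighbours whose products combine in dopamine neurons, had differences of 0.15 ± 0.13 and -0.044 ± 0.13. Chrna6 ranged over 5.23 to 5.89 in exposed mice and 5.35 to 5.55 in sham mice, and without exposed mice 2 and 4 its difference was -0.052. Chrnb3 ranged over 3.56 to 4.11 in exposed mice and 3.76 to 4.07 in sham mice. Chrna2, a further ligand-binding alpha subunit, was 4.92 ± 0.15 in exposed and 5.04 ± 0.18 in sham mice. Each of these ranges of one group overlapped that of the other.

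Of the subunits that can work without a beta partner, Chrna9, known from hair cells of the ear, read 6.77, 7.07, 6.94 and 6.99 in exposed mice, against 6.91, 7.11, 6.93 and 6.98 in sham mice. It was above the olfactory and vomeronasal 95th percentile in all 8 mice, and exposed and sham mice lay within the same narrow band (difference -0.039 ± 0.094, interval -0.25 to 0.17). Chrna10, with which it forms receptors, was under that percentile in all 8 mice and read 5.64, 5.53, 5.66 and 5.74 in exposed mice, against 5.29, 5.51, 5.50 and 5.56 in sham mice. Exposed mice 1, 3 and 4 lay above every sham mouse and exposed mouse 2 among them, a difference of 0.17 ± 0.092 that did not pass (unadjusted p = 0.0877, limma's adjusted p = 0.838). Chrna7, the homomeric receptor also found on macrophages, read 5.94, 5.60, 5.51 and 5.42 in exposed mice, against 5.87, 5.43, 5.36 and 5.41 in sham mice. The highest value of each group came from 1 mouse, exposed mouse 1 and sham mouse 1, and the difference was 0.099 ± 0.15.

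**Figure D3:**
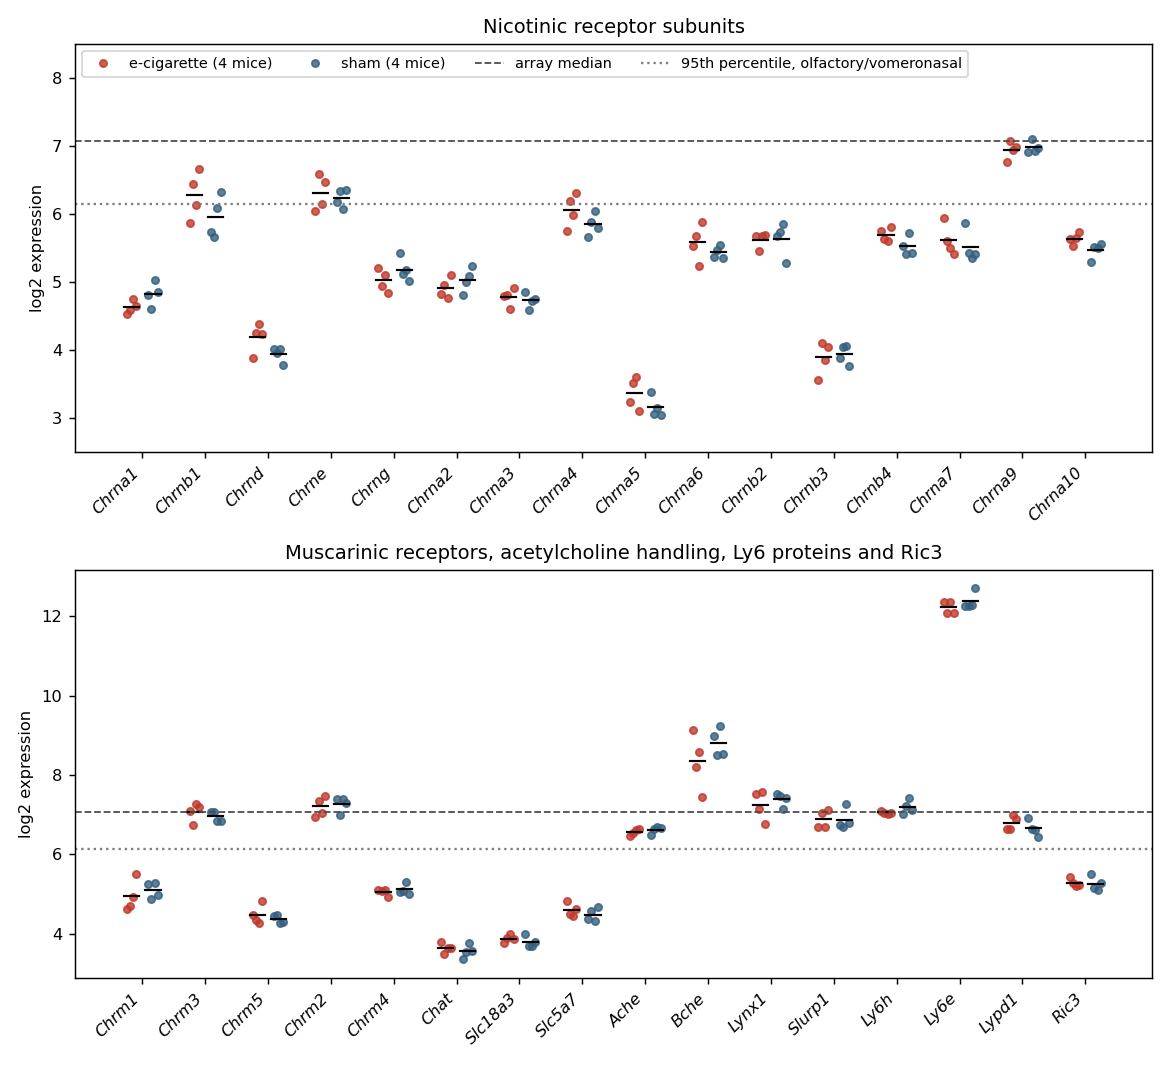
Log2 expression of each member in each mouse, exposed mice (red) left of sham mice (blue), with black bars at group means of 4 mice; the dashed line is the array median and the dotted line the 95th percentile of olfactory and vomeronasal receptor probe sets. The groups overlap for every gene shown, and the widest spread is that of Bche in exposed mice.

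Of the muscarinic receptors, Chrm2 and Chrm3, those of smooth muscle, were above the olfactory and vomeronasal 95th percentile in all 8 mice. Chrm2 read 6.95, 7.35, 7.05 and 7.48 in exposed mice, against 7.41, 7.00, 7.40 and 7.30 in sham mice. Exposed mice 2 and 4 lay with the higher sham mice and exposed mice 1 and 3 with sham mouse 2 at the low end. The difference of -0.067 ± 0.14 had an interval of -0.38 to 0.25, and it was -0.28 without exposed mice 2 and 4. Chrm3 read 7.09, 6.73, 7.28 and 7.19 in exposed mice, against 7.06, 7.08, 6.85 and 6.85 in sham mice. Exposed mouse 2 was the lowest of all 8 and the other 3 exposed mice were the highest (difference 0.11 ± 0.13, interval -0.17 to 0.39, limma's adjusted p = 0.889).

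The balance of M2 and M3 transcripts was compared as Chrm2 minus Chrm3 within each mouse, of which only the difference between groups carries meaning. It was -0.14, 0.62, -0.23 and 0.29 in exposed mice, against 0.34, -0.085, 0.55 and 0.45 in sham mice. Exposed mouse 2 had the highest value and exposed mouse 3 the lowest, so the exposed group spanned the sham group. The group difference of -0.18 gave an exact two-sided permutation p of 0.486, and 0.0286 is the smallest that 4 against 4 mice allow. Without exposed mice 2 and 4 it was -0.50. With the other within-mouse contrast below, 2 such tests were made, and neither passed before adjustment.

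Chrm1 and Chrm5, which like Chrm3 couple to Gq, and Chrm4, which like Chrm2 couples to Gi, lay under the olfactory and vomeronasal 95th percentile in every mouse. Chrm1 read 4.63, 4.71, 4.94 and 5.50 in exposed mice, against 5.26, 4.87, 5.29 and 4.98 in sham mice. Exposed mouse 4 was the highest of all 8, and exposed mice 1 and 2 were the lowest (difference -0.16 ± 0.19). Chrm5 had its highest value, 4.83, in that same exposed mouse 4 and differed by 0.11 ± 0.13. Chrm4 was 5.05 ± 0.084 in exposed and 5.12 ± 0.13 in sham mice.

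Genes that make and load acetylcholine were read within the olfactory and vomeronasal range in both groups. Chat read 3.79, 3.49, 3.63 and 3.66 in exposed mice, against 3.36, 3.54, 3.78 and 3.56 in sham mice. Slc18a3, the vesicular acetylcholine transporter, whose gene overlaps that of Chat in the RefSeq table, read 3.78, 3.89, 3.99 and 3.87 in exposed mice, against 4.01, 3.69, 3.70 and 3.79 in sham mice. Both were below the median of olfactory and vomeronasal receptors on all 8 arrays, with overlapping groups and differences of 0.082 ± 0.11 and 0.083 ± 0.098. Slc5a7, the high-affinity choline transporter of cholinergic endings, was 4.60 ± 0.18 in exposed and 4.49 ± 0.16 in sham mice. No difference in these 3 transcripts was detected at this signal. In the same RNA the autonomic nerve list, averaged over 15 markers, was 6.12, 6.15, 6.19 and 6.20 in exposed mice 1 to 4, against 6.17, 6.27, 6.14 and 6.10 in sham mice 1 to 4, an overlap of both groups.

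Both cholinesterases were above the olfactory and vomeronasal 95th percentile in all 8 mice, Ache on the brighter of its 2 probe sets only. Bche, which encodes butyrylcholinesterase, read 9.13, 8.21, 8.59 and 7.44 in exposed mice, against 8.99, 8.49, 9.24 and 8.52 in sham mice. Exposed mouse 1 lay among the higher sham mice and exposed mouse 4 was more than 1 log2 unit below any sham mouse, with exposed mouse 2 next. The SD was 0.71 in exposed and 0.37 in sham mice. The difference of -0.47 ± 0.32, or 1.39-fold lower in exposed mice, did not pass (unadjusted p = 0.168, limma's adjusted p = 0.841). It was -0.17 without exposed mouse 4, -0.73 without exposed mouse 1 and 0.044 without exposed mice 2 and 4.

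Marker lists of other cell types varied among the mice too. Smooth muscle markers averaged 11.30, 10.70, 11.29 and 11.08 in exposed mice 1 to 4, against 11.42, 11.35, 11.41 and 11.03 in sham mice 1 to 4, lowest in exposed mouse 2. All 9 of these markers had lower means in exposed mice, with a median difference of -0.145. The stromal list averaged 10.80, 10.34, 10.72 and 10.62 in exposed mice 1 to 4, against 10.76, 10.70, 10.78 and 10.77 in sham mice 1 to 4, lowest in exposed mice 2 and 4. Epithelial markers averaged 8.58, 8.64, 8.58 and 8.15 in exposed mice 1 to 4, against 8.67, 8.67, 8.83 and 8.96 in sham mice 1 to 4, lower in all exposed mice than in any sham mouse. The margin was small, with the highest exposed average at 8.635 and the lowest sham average at 8.670. Of the 9 markers, 7 had lower and 2 higher means in exposed mice. Of single epithelial markers, only Cldn7 had separate ranges, 7.53 to 8.14 in exposed and 8.21 to 8.42 in sham mice. Among single probe sets of the array, 2.73% had separate ranges in either direction. That share does not apply to an average over a list, for which no such share was computed.

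Skeletal muscle markers averaged 6.54, 6.25, 6.45 and 6.26 in exposed mice 1 to 4. In sham mice 1 to 4 they averaged 6.59, 6.49, 6.64 and 6.61. The average was again lowest in exposed mice 2 and 4, the mice in which Chrnb1 and Chrne were highest. Of single markers, Acta1, Tnnt3 and Tnni2 were lowest in these mice, while some others of the list were highest there. Means were higher in exposed mice for 4 of the 10 skeletal muscle markers and lower for 6. Adipocyte markers averaged 6.56, 6.81, 5.47 and 5.62 in exposed mice 1 to 4, against 5.55, 5.52, 5.52 and 5.85 in sham mice 1 to 4. This average stood out high in exposed mice 1 and 2, but not every marker of the list was high there. Means were higher in exposed mice for 5 of the 7 adipocyte markers and lower for 2. Of the 7, 2 lay above the olfactory and vomeronasal 95th percentile. All 5 endothelial markers had higher means in exposed mice, with list averages of 9.15 to 9.60 in exposed mice and 8.87 to 9.56 in sham mice. Of all 80 markers measured, 0 passed limma's adjusted test and 8, or 10%, reached an unadjusted p under 0.05, against 5.42% of all probe sets. Among probe sets over the 50th percentile of mean level the share was 7.17%. Markers were chosen with earlier results of these data known, so their share is no independent test. Of the 8 markers, 7 had lower means in exposed mice, 3 of 9 epithelial, 2 of 10 skeletal muscle, 1 of 9 smooth muscle and 1 of 8 leukocyte markers, and 1 of 7 adipocyte markers had a higher mean. The part of these cell types in the values of Bche and the other members was not tested.

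Ache, the acetylcholinesterase of synapses, varied little and read 6.47, 6.53, 6.60 and 6.64 in exposed mice, against 6.48, 6.63, 6.69 and 6.68 in sham mice (difference -0.056 ± 0.087, interval -0.25 to 0.14). Its second, dimmer probe set differed by 0.058 ± 0.083, the opposite sign, and neither passed. That second probe set had a mean of 5.92 and was under the olfactory and vomeronasal 95th percentile in all 8 mice. Bche minus Ache within each mouse was 2.66, 1.68, 1.98 and 0.80 in exposed mice, against 2.52, 1.86, 2.56 and 1.85 in sham mice. Exposed mouse 4 was the lowest and exposed mouse 1 the highest of all 8. The group difference was -0.41 (exact two-sided permutation p = 0.429).

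Ly6 proteins are small three-finger proteins, several of which bind nicotinic receptors and modulate them. Ly6e, an interferon-inducible member of wide expression, lay 5.22 above the array median and read 12.36, 12.09, 12.34 and 12.07 in exposed mice, against 12.26, 12.25, 12.29 and 12.70 in sham mice. Sham mouse 4 was the highest, exposed mice 2 and 4 were the lowest, and the difference was -0.16 ± 0.13. Lynx1, a membrane-bound brake on nicotinic receptors in brain, read 7.52, 7.13, 7.57 and 6.77 in exposed mice, against 7.53, 7.48, 7.14 and 7.42 in sham mice. Exposed mouse 4 was again the lowest, next to exposed mouse 2 and sham mouse 3. Its difference was -0.14 ± 0.17 over all mice and 0.15 without exposed mice 2 and 4.

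Slurp1, a secreted Ly6 protein that acts on alpha7 receptors, read 6.70, 7.04, 6.69 and 7.11 in exposed mice, against 6.73, 6.70, 7.27 and 6.79 in sham mice. The groups overlapped throughout, and the difference of 0.013 ± 0.15 was close to 0. Ly6h, which limits alpha7 receptors at the surface of neurons, read 7.10, 7.04, 7.03 and 7.05 in exposed mice, against 7.01, 7.21, 7.41 and 7.11 in sham mice. The exposed mice lay close together inside the sham range (difference -0.13 ± 0.100). Lypd1, also called Lynx2, was 6.79 ± 0.18 in exposed and 6.66 ± 0.20 in sham mice, and its difference was 0.13 ± 0.13. Ric3, a chaperone for alpha7 assembly, was dim at 5.29 ± 0.099 in exposed and 5.26 ± 0.17 in sham mice.

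**Figure D4:**
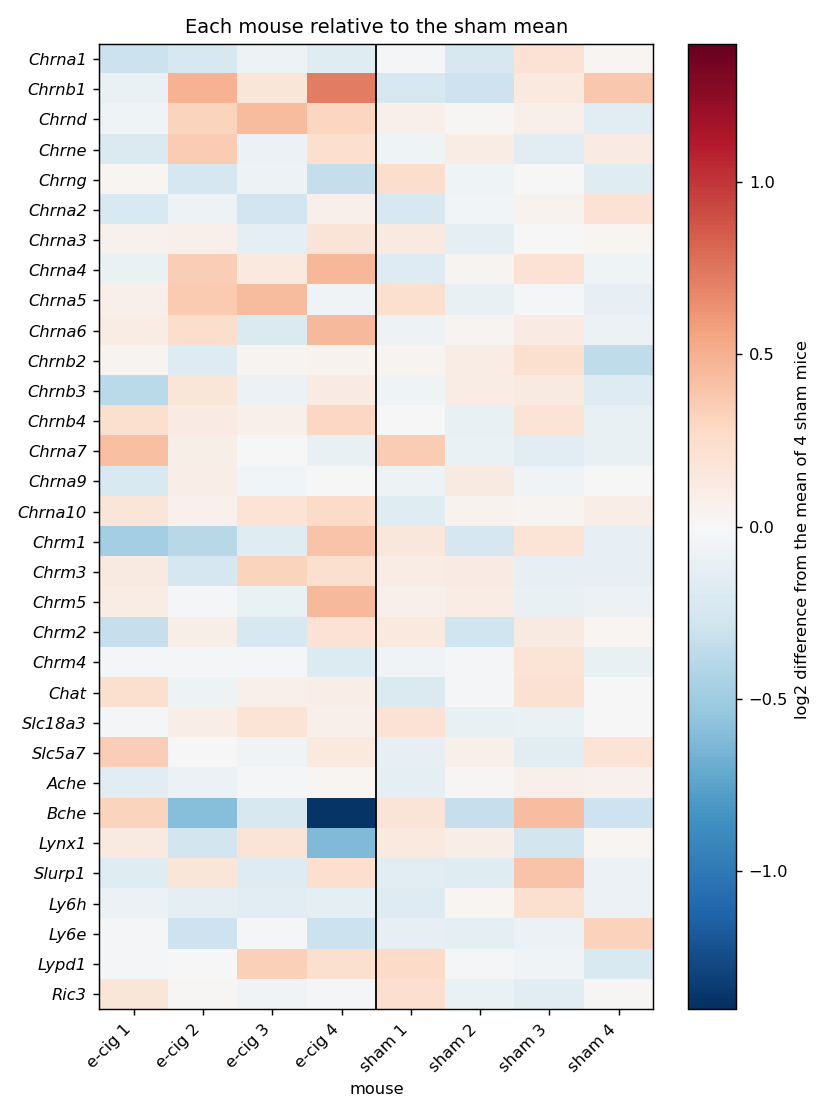
Log2 expression of each of the 32 genes in each mouse minus the mean of the 4 sham mice, exposed mice left of the line and sham mice right of it. Bche in exposed mouse 4 is the farthest from the sham mean, and Chrnb1, Chrne and Chrna4 are highest in exposed mice 2 and 4.

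Spread among mice was read for each gene as its SD within a group. The SD was larger in exposed than in sham mice for 16 of 32 members, against 66.0% of all genes. Among olfactory and vomeronasal receptor probe sets, dim like most members, the share was 56.2%. Their median SD was 0.16 in exposed and 0.15 in sham mice. The median SD of the members was 0.18 in exposed and 0.17 in sham mice, and that of all genes was 0.18 in exposed and 0.13 in sham mice. Exposed mice were most spread for Bche, with an SD of 0.71, followed by Chrm1 (0.40), Lynx1 (0.37) and Chrnb1 (0.35).

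Partners of these receptors were read from 4 further lists, receptor clustering and assembly, other Ly6 proteins, muscarinic signal transduction, and choline uptake, with 33 of 37 genes measured. None passed limma's adjusted test, against 0% of the array, and 0 reached an unadjusted p under 0.05, against 5.42% of all probe sets. The mean was higher in exposed mice for 14 and lower for 19, with a median difference of -0.018. Of these genes, 26 of the 33 lay above the olfactory and vomeronasal 95th percentile, against 67.1% of all genes. Gnai3, an alpha subunit of Gi, read 9.25, 9.18, 9.09 and 9.10 in exposed mice, against 9.31, 9.41, 9.24 and 9.31 in sham mice. Sham mouse 3 overlapped exposed mouse 1 by a small margin, and the difference was -0.17 ± 0.083 (unadjusted p = 0.0746).

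Plcb1, a phospholipase C that Gq activates, read 8.64, 8.27, 8.67 and 8.44 in exposed mice, against 8.73, 8.76, 8.67 and 8.66 in sham mice. Exposed mice 2 and 4 were the lowest, and all exposed mice but mouse 3 were below the sham range (difference -0.20 ± 0.10). Prima1, which anchors acetylcholinesterase in the membrane, read 7.69, 7.91, 7.76 and 8.36 in exposed mice, against 7.57, 7.44, 7.74 and 7.83 in sham mice, with exposed mouse 4 the highest (difference 0.29 ± 0.15). Gnao1, an alpha subunit of the Gi family, read 8.54, 8.34, 8.40 and 8.18 in exposed mice, against 8.24, 8.28, 8.12 and 8.16 in sham mice. Exposed mice 1, 2 and 3 lay above every sham mouse and exposed mouse 4 among them (difference 0.17 ± 0.097, unadjusted p = 0.115). The muscarinic signal transduction list as a whole averaged 8.41, 8.21, 8.36 and 8.30 in exposed mice 1 to 4, against 8.44, 8.40, 8.39 and 8.24 in sham mice 1 to 4, and 6 of its 17 members had higher and 11 lower means in exposed mice.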

How the data were processed

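The deposited table holds log2 values of 22206 probe sets in 8 mice, from biotin-labelled RNA. Its log2 scale is inferred from the range (2.75 to 13.64). The submitters' processing notes name Partek without its settings. The arrays share 1 distribution (within 0.0198 at any rank), so they were not normalized again, and a change common to all genes cannot be seen.

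Symbols are those of the platform annotation (19572 probe sets with 1 symbol, 0 with several, 2634 without). All 32 members matched the RefSeq table of GRCm38.p6, used for names and neighbours alone. Limma 3.58.1 (R 4.3.3) was fitted to all probe sets with the group as the only term, p-values were adjusted by Benjamini-Hochberg over all of them at a threshold of 0.05, and 95% intervals are unadjusted. Members, lists and tests were chosen with earlier results of these data known. All members may be named, and up to 4 genes of smallest p among the partner genes together and in each marker list. The fit was tested on simulated data.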

Additional observations from a re-analysis of the deposited data

Results flagged for a closer look

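By Dixon's test, 5 of 68 groups of 4 mice held 1 mouse far from the other 3, where chance gives about 1 in 20. Among exposed mice, mouse 2 was low for Chrnb2 (5.46, others 5.67 to 5.69) and mouse 4 was low for Chrm4 (4.93, others 5.09 to 5.10). Among sham mice, mouse 1 was high for Chrna7 (5.87, others 5.36 to 5.43), mouse 3 for Slurp1 (7.27, others 6.70 to 6.79) and mouse 4 for Ly6e (12.70, others 12.25 to 12.29). Exposed mouse 1 had a Chrna7 value, 5.94, close to that of sham mouse 1. The low Bche value of exposed mouse 4 did not meet this test.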

How the results depend on the processing

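Quantile or median scaling, eBayes with a trend or with trend and robust estimation, and a filter on mean level at the 25th percentile (18 of 32 members kept) or the 50th (5 kept) turned no member's direction and gave 0 members at an adjusted or unadjusted p under 0.05 in limma. Over 504 values of single members under 18 alternatives, 0 passed the adjusted test (smallest adjusted p 0.302), and 30 changed sign, at 14 members. The count of members at an unadjusted p under 0.05 was 0 over all mice, 1 with array weights (Chrnd, when 5.4% of all probe sets reached it), and 0 to 4 when 1 mouse was left out (3.27% to 11.5% of all probe sets), highest without exposed mouse 1. The number of probe sets called over the array was 0, and 0 to 1 when 1 mouse was left out. With exposed mice 2 and 4 left out, signs turned for Chrne (-0.14), Chrna3 (-0.035), Chrna6 (-0.052), Chrnb2 (0.039), Bche (0.044), Lynx1 (0.15) and Slurp1 (-0.18), Bche minus Ache differed by 0.13, and Chrm2 minus Chrm3 by -0.50. Array weights turned Slurp1 (-0.0034) and Ric3 (-0.0015), and the mean of both probe sets turned Ache (0.0011). Leaving out 1 mouse gave ranges that cross 0 for Chrm2 (-0.16 to 0.019), Chrm5 (-0.0071 to 0.18), Chrna3 (-0.00033 to 0.10), Chrna7 (-0.010 to 0.22), Chrna9 (-0.082 to 0.018), Chrnb2 (-0.13 to 0.059), Chrnb3 (-0.12 to 0.066), Chrne (-0.017 to 0.17), Lynx1 (-0.25 to 0.014), Ric3 (-0.023 to 0.10) and Slurp1 (-0.061 to 0.15). Leaving out 1 mouse, the within-mouse differences ran from -0.34 to -0.055 for Chrm2 minus Chrm3 and from -0.71 to -0.088 for Bche minus Ache, 0 of them past the exact test. The cause of these changes was not tested.

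The sample labels do not say whether replicate numbers pair the mice of the 2 groups, and the main fit did not treat them as pairs. Deviations from the group means correlated at 0.08, -0.238, 0.085 and 0.075 for numbers 1 to 4. With 1 mouse of each number per group, these values cannot exclude pairing. With the replicate number as a block, 1 member, Bche (difference -0.47), had an unadjusted p under 0.05 (as did 5.74% of all probe sets), 0 passed the adjusted limma test, and 0 probe sets were called. At the 99th percentile of olfactory and vomeronasal receptors, 8 members lay above, against 11 at the 95th. The number above the array median was 4 when the median was taken over probe sets with a symbol. Signal near the level of olfactory receptors limits what can be said of 21 members, and 4 mice per group limit all.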
